A study of Mus musculus with 4 samples.

Results

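B cells were followed among the cells that came along with cerebral vascular fragments of adult mice. The members were chosen by their own transcripts, from cells in which over 500 genes were detected and mitochondrial genes took under 10% of the UMIs (unique molecular identifiers, each a counted RNA molecule). A cell was taken as a B cell when at least 3 of the 5 genes Cd79a, Cd79b, Ighm, Ms4a1 and Ly6d were detected and Cd79a and Cd79b together had 2 or more UMIs. Of 17999 kept cells, 272 were selected on these genes, or 1.51% (95% exact binomial interval 1.34 to 1.70%). This interval covers only the counting error of the pooled cells, and the shares of the 4 mice ran from 0.772 to 3.07%. They held 0.819% of the UMIs of all kept cells.

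The study compared the endothelium of Angpt2-KO mice, which lack angiopoietin-2 in every cell, with that of wild-type littermates. Single-cell libraries came from cerebra of mice aged 3 months, after the vascular fragments had been captured on beads against PECAM1, a surface protein of endothelial cells that leukocytes also carry. Each group had 2 mice with 1 library each. The Angpt2-WT mice (Angpt2+/+) are called WT1 (female) and WT2 (male), and the Angpt2-KO mice (Angpt2-/-) KO1 (female) and KO2 (male). The knockout was constitutive, from an exon 4 deletion made by crossing floxed Angpt2 mice with Pgk-Cre mice, on a C57BL6/J background. The libraries read the 3′ ends of transcripts, so UMIs of Angpt2 do not show whether exon 4 is present and do not check the genotype. GEO's labels call the cells endothelial, and the B cells were a minor population beside 15347 cells with endothelial markers.

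B cells are lymphocytes that carry an antibody of a single specificity as their antigen receptor, the B cell receptor, which signals through the paired chains Cd79a and Cd79b. They arise in the bone marrow, where precursors cut and rejoin their immunoglobulin genes, leave it as immature cells with IgM, and become mature naive cells with both IgM and IgD that circulate through blood, spleen and lymph nodes. After antigen they can switch to IgG, IgA or IgE, enter germinal centres, or become memory or plasma cells. In and around the brain, B cells are known from the vessel lumen, the meninges and the adjoining skull marrow, and few lie in healthy brain tissue. The libraries do not show on which side of the vessel wall a cell lay.

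The genes behind the rule were high in nearly every selected cell, which follows from the selection and is given as a description. Cd79a (ENSMUSG00000003379) had 2445, 2010, 2691 and 1961 CPM in WT1, WT2, KO1 and KO2 (UMIs per 1000000 UMIs, here summed over the B cells of a mouse), against a mean of 2.73 ± 1.56 (SD, n = 4 mice) in all other kept cells. Ighm (ENSMUSG00000076617), the constant region of IgM, had 2134, 1818, 3578 and 2095 CPM. Ms4a1 (ENSMUSG00000024673), which encodes CD20, had 891, 694, 1421 and 708. KO1 was highest for each of these 3 genes. Of the 272 cells, 207 had all 5 genes, 54 had 4 and 11 had 3, with a median of 14 Cd79a and Cd79b UMIs per cell. Just inside the rule, the 11 cells with 3 genes had a median of 1910 UMIs, and 6 cells had exactly 2 Cd79a and Cd79b UMIs. Just outside it, 18 kept cells had 2 of the genes and 2 or more Cd79a and Cd79b UMIs, of which 8 also had endothelial markers, and 7 kept cells had 3 or more genes with 1 such UMI.

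B cells were shallower than the other cells. Their median was 3012.5 UMIs and 1176.5 genes per cell, against 5029 UMIs and 2151 genes in the other kept cells. By mouse, the median B cell of WT1, WT2, KO1 and KO2 had 2952.5, 2736.5, 3662 and 2284 UMIs, so KO1 was the deepest and KO2 the shallowest library. The 4 libraries gave 196300, 396061, 421430 and 134098 UMIs in B cells. The sets of kept barcodes overlapped by 33 barcodes over all pairs of libraries, and 2 B cell barcodes were also a kept barcode of another library. No doublets had been removed, and 26 B cells (5, 10, 6 and 5 by mouse) held UMIs of at least 4 of 7 endothelial genes, among them Cdh5, Kdr and Cldn5. These 26 endothelial-positive B cells had a median of 12096 UMIs, against 2871.5 in the other 246. The 10 listed endothelial genes summed to 8284 ± 2612 CPM over all B cells and to 742 ± 110 without these 26 cells (SD, n = 4 mice), against 24686 ± 1948 in other cells. Several results that rest on them are given with and without these cells, and values given once include them unless stated.

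Markers of T cells, NK cells and neutrophils were low, while those of microglia and red blood cells varied between mice. Of 10 T and NK cell genes, 5 had no UMI in any B cell (Cd3e, Cd3g, Trbc1, Trbc2 and Ncr1), and the most abundant was Cd2, which B cells also express, with 149 ± 34.8 CPM. The list summed to 112, 174, 187 and 142 CPM in WT1, WT2, KO1 and KO2, and no B cell held 3 or more of these genes. The neutrophil genes S100a8, S100a9 and Retnlg had no UMI. The 10 microglia and macrophage genes summed to 71.3, 386, 116 and 1521 CPM in WT1, WT2, KO1 and KO2, against 887, 533, 1736 and 970 in the other kept cells, so that the B cells of KO2 were above the other cells of that mouse. In KO2, 2 B cells held 4 or more of 8 microglia genes, and in WT2 1 did. The 6 erythroid genes, led by the haemoglobin gene Hbb-bs (found in 27.2% of B cells), summed to 249.6, 134, 161 and 694 CPM, against a mean of 5654 ± 345 in other cells. Ttr, the abundant transcript of the choroid plexus epithelium, was found in 96.2%, 96.7%, 34.8% and 78.0% of B cells of WT1, WT2, KO1 and KO2 and in 97.2%, 95.3%, 40.5% and 68.5% of all other kept cells of the same mice. KO1 was the lowest mouse in both.

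The first question was how many B cells each mouse gave. WT1 had 52 of 4043 kept cells, or 1.29% (95% exact interval 0.962 to 1.68%). WT2 had 90 of 5742, or 1.57% (1.26 to 1.92%). KO1 had 89 of 2900, or 3.07% (2.47 to 3.76%), and KO2 had 41 of 5314, or 0.772% (0.554 to 1.05%). The highest and the lowest share were therefore both in Angpt2-KO mice, 3.98-fold apart, and the groups overlapped. The mean was 1.43 ± 0.199% in Angpt2-WT and 1.92 ± 1.62% in Angpt2-KO mice (SD, n = 2 each), a difference of 0.493 percentage points (two-sided exact permutation test over mice, p = 1, where the smallest p that 2 against 2 mice allow is 0.333). Without KO1 the difference was -0.655 percentage points, so its sign rested on that mouse. The intervals cover counting error only.

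The mouse with the highest share of B cells, KO1, also had the highest share of T or NK cells, and KO2 was the lowest in both. Cells with T or NK cell genes made up 0.371%, 0.366%, 0.690% and 0.226% of kept cells in WT1, WT2, KO1 and KO2. The number of B cells per T or NK cell was 3.47, 4.29, 4.45 and 3.42, a narrower range than that of the B cell share. Microglia, which live in the tissue, made up 4.70%, 2.40%, 7.93% and 4.35%, highest in KO1 as well but lowest in WT2. A share of captured cells depends on how many endothelial cells were captured, and its part in these differences was not tested. Of the kept cells other than endothelial cells, B cells were 8.44%, 12.8%, 16.2% and 5.24%, with the same order of the mice. On this basis the group means were nearly equal, at 10.6% in Angpt2-WT and 10.7% in Angpt2-KO mice.

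**Figure D1:**
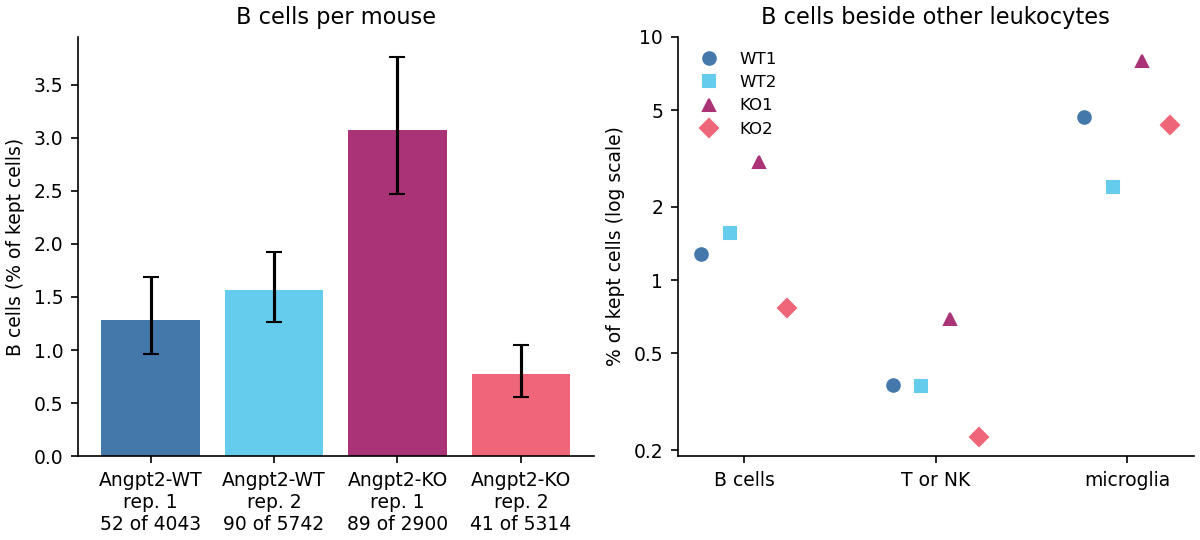
Left, B cells as a percentage of kept cells in each mouse, with 95% exact binomial intervals as error bars and the cell numbers under each bar. Right, the same shares beside those of T or NK cells and microglia on a log axis, 1 symbol per mouse. KO1 is the highest mouse in each of the 3 cell classes, and KO2 is the lowest for B cells and for T or NK cells.

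Against all other kept cells, B cells had higher levels in 4 of 4 mice for 1617 of 22338 genes with a UMI (7.24%) and lower levels in 4 of 4 mice for 8839 (39.6%). The rule used this contrast, so the counts that follow are descriptions without a test. Of the genes outside the rule that were found in at least 25% of the B cells of every mouse, the 4 furthest above other cells were the light chain constant regions Igkc, Iglc2, Iglc1 and Iglc3, with Igkc at 6529 ± 1170 CPM (SD, n = 4 mice) against 1.24 in other cells. They were followed by Ighd (the IgD constant region), Vpreb3, Fcmr (the IgM Fc receptor), Gm8369, Pax5 and Fcer2a (CD23). The rest of the first 20 were BE692007, Fcrla, Cd74, Cd69, Mzb1, Siglecg, H2-DMb2, Ptprcap, Ltb and Ccr7. Of these 20, Gm8369, BE692007, Cd69, Ptprcap, Ltb and Ccr7 were shared with T or NK cells, where 30.9 to 82.4% of cells had a UMI, and the other 14 were found in at most 2.94% of them.

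Factors of the B lineage were present throughout. Of 12 such genes, 10 were higher in B cells in 4 of 4 mice and none was lower in 4 of 4, with a median log2 ratio of 4.26 against -0.13 over all genes. Pax5, which holds cells in the B lineage, had 301, 182, 339 and 321 CPM in WT1, WT2, KO1 and KO2 and 0.0865 in other cells. Ebf1, which acts with it, was found in 98.5% of B cells, but also in 79.7% of endothelial cells, where it is expressed in its own right. Bcl11a (205 ± 51.5 CPM), Spib (140 ± 61.8) and Ikzf3 (127 ± 58.6) were each at or below 0.734 CPM in other cells. Foxo1 and Tcf3 were the 2 factors that did not separate B cells from the others in every mouse.

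The maturation state was read from genes of successive stages, none of which is in the rule apart from Ighm. The rule asks for at least 3 of its 5 genes, so B cells of stages in which some of these are low could be missed. Shares of stages are therefore shares of the selected cells. Of 12 genes of pro-B and pre-B cells, 1 was higher than in other cells in 4 of 4 mice and 4 were lower. Over all genes 7.24% were higher and 39.6% lower, so these counts alone do not set the list apart. The 1 was Myb, a factor of precursors, found in 18 B cells (6.62%) with 17.3 CPM against 0.164 in other cells. Il7r, the receptor for interleukin-7, was found in 4 cells. The recombination and surrogate light chain genes were at or near 0. Igll1 and Vpreb2, parts of the surrogate light chain, had no UMI in 272 cells, which, taken as 3 cells of 272, allows a share of up to 1.10% of cells with a UMI, and neither did Kit. Dntt, Rag2 and Vpreb1 were found in 1, 1 and 2 cells. Rag1, which cuts the immunoglobulin genes, was found in 7 cells with 18 UMIs, at most 5 in a cell. At least 1 of these 6 recombination and surrogate light chain genes was seen in 10 B cells and 2 or more in 1 cell. The 10 were 3.68% of the pooled cells (exact interval for counting error 1.78 to 6.66%), with 2, 4, 3 and 1 in WT1, WT2, KO1 and KO2. Cd34, Erg and Lef1, which mark precursors but also endothelial cells, fell from 32, 21 and 33 cells to 9, 6 and 9 without the 26 endothelial-positive cells.

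Most cells carried transcripts of mature, naive B cells. Ighd (ENSMUSG00000104213) had 856, 606, 553 and 872 CPM in WT1, WT2, KO1 and KO2 and was found in 78.8%, 80.0%, 67.4% and 78.0% of cells. Its share was lowest in KO1, although that library was the deepest. IgM and IgD are made from one long transcript by splicing, and their constant regions lie side by side, Ighd at chr12:113406604-113416324 and Ighm at chr12:113418558-113422730 on the minus strand (GRCm38, GENCODE M21). Fcer2a, a receptor that rises as cells become follicular, was found in 53.8%, 52.2%, 48.3% and 56.1% of cells. Ccr7, which guides naive lymphocytes into lymph nodes, was found in 54.0% of all B cells, and Cxcr5, the receptor that leads B cells into follicles, in 20.6%. For each of these genes at most 0.143% of endothelial cells had a UMI. Of the 10 mature follicular genes, 9 were higher than in other cells in 4 of 4 mice. The tenth, Klf2, a factor of quiescent lymphocytes, had 2205 ± 545 CPM against 1854 ± 447 in all other kept cells, was higher in 3 of 4 mice, and was found in 92.1% of endothelial cells.

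Depth lowered these shares. With each cell thinned to 1000 UMIs, which all 272 B cells reach, Ighd was found in 51.0 ± 9.86% of cells (SD, n = 4 mice) and Vpreb3 in 34.1 ± 8.53%, against 76.1 ± 5.83% and 59.0 ± 6.03% before. A cell without a UMI of a gene is therefore not shown to lack its transcript. At that depth Ighd was found in 0.0263% of 15217 endothelial cells and Vpreb3 in none.

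Class-switched constant regions were close to absent from the selected cells, and genes of later stages were found in a minority of them. Ighm is in the rule, so switched cells without it could pass less often. No UMI of Ighg1, Ighg2b, Ighg2c, Ighg3 or Ighe was seen in 272 cells, and Igha was seen in 4 cells with 4 UMIs. Jchain, which links the chains of secreted IgM and IgA, had none. Of 7 germinal centre genes, none was higher than in other cells in 4 of 4 mice. S1pr2 had no UMI, Fas was found in 6.99% of B cells and 37.6% of endothelial cells, and Bcl6 was seen in 19 cells, of which 13 were in KO1 (14.6% of its B cells), and in 3.70% of endothelial cells. Of 6 genes of age-associated and memory cells, Tbx21, Cd80 and Nt5e had no UMI and Itgax was found in 1 cell. The other 2 were higher than in other cells in 4 of 4 mice: Cd86, a costimulatory ligand, was found in 29 B cells (10.7%) and Pdcd1lg2, a ligand of the receptor PD-1, in 11 (4.04%). Of 7 plasma cell genes, Sdc1 and Slamf7, found in 10 and 23 cells, were higher than in other cells in 4 of 4 mice. Xbp1 and Prdm1 were found in 47 and 12 cells, and both were more frequent in endothelial cells (43.5% and 18.0%). Without the endothelial-positive cells, Xbp1 was found in 28 B cells and Fas in 6 (2.44%). Of 12 cell cycle genes, Pcna and Mcm5 were higher than in other cells in 4 of 4 mice and 5 were lower, beside 7.24% and 39.6% of all genes. Pcna, the sliding clamp of DNA replication and repair, was found in 26.8% of B cells and 33.8% of endothelial cells, with 89.3 ± 25.3 CPM against 67.5 ± 3.02 in other cells. No cell held 2 or more of 7 genes of dividing cells (Mki67, Top2a, Birc5, Cdk1, Ccnb2, Cenpf and Rrm2), and 12 cells held 1 of them.

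Genes of marginal zone and B-1 cells gave no full profile. Cr2, which marginal zone cells have at high level and follicular cells at lower level, was found in 36 cells, Cd1d1 in 18, Dtx1 in 14 and Fcrl5 in 1. Mzb1, a chaperone of the endoplasmic reticulum named after marginal zone cells, was found in 51.8% of cells. Of the B-1 genes, Plac8 had 326 ± 100 CPM, while Cd5 was found in 4 cells, Zbtb32 in 1 and Bhlhe41 in 13. Of the 7 genes of each list, 3 marginal zone genes and 2 B-1 genes were higher than in other cells in 4 of 4 mice.

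**Figure D2:**
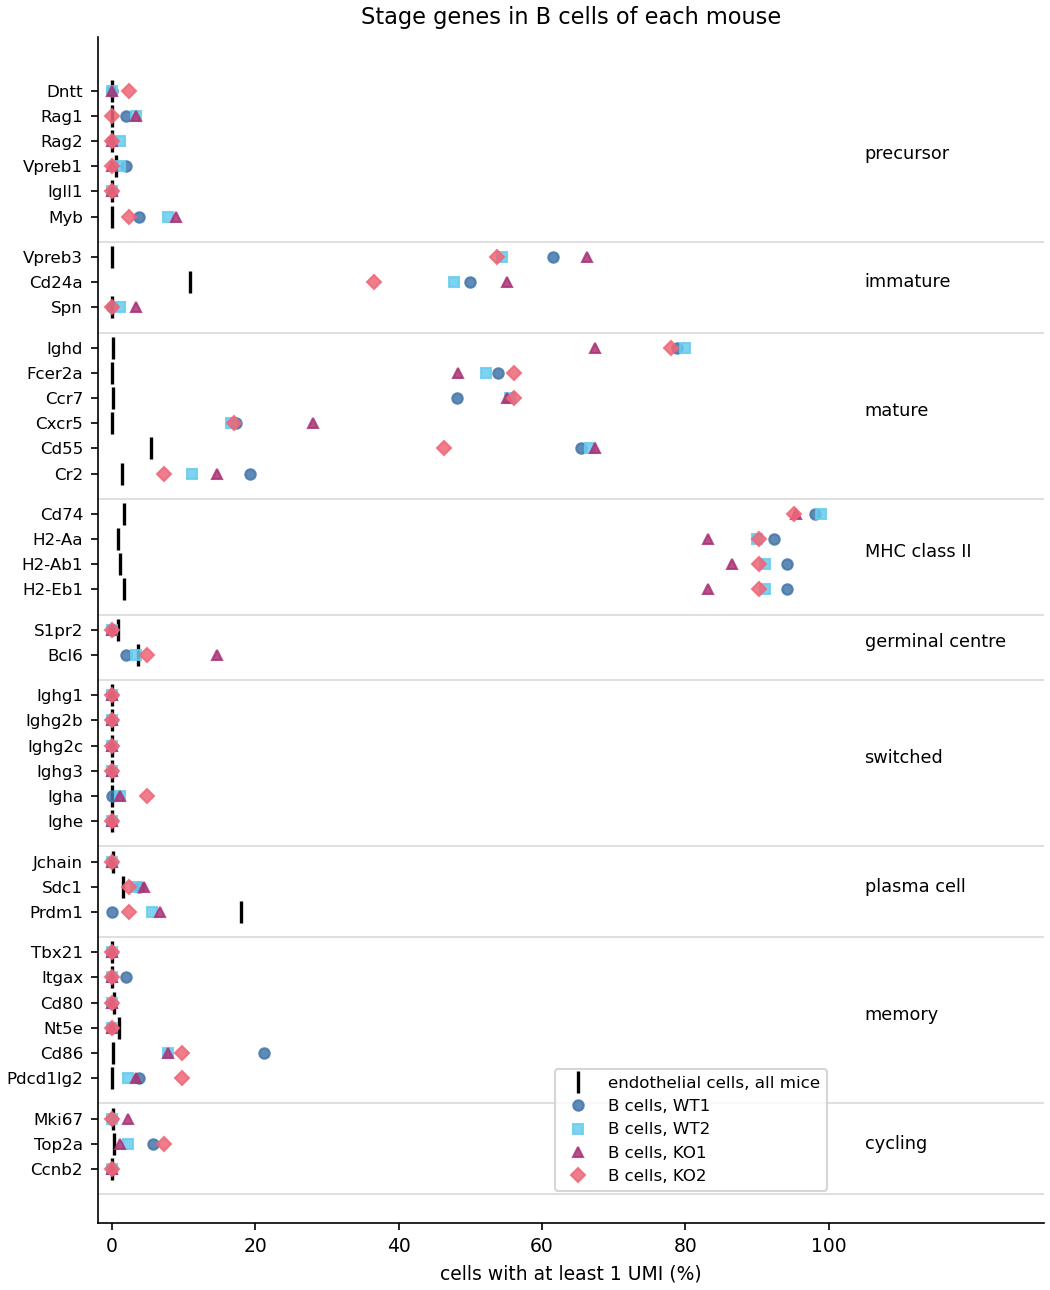
Percentage of B cells with at least 1 UMI of each stage gene, 1 symbol per mouse, with the share in all endothelial cells as a black bar. The mature and MHC class II genes and Vpreb3 lie right of the endothelial bar in each mouse, and the precursor, switched and cycling genes lie below 10% in each mouse, as do Tbx21, Itgax, Cd80 and Nt5e of the memory genes.

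Nearly all genes of antigen presentation and receptor signalling were higher in B cells. All 10 genes of MHC class II presentation were higher than in other cells in 4 of 4 mice, with a summed level of 16429, 13402, 15383 and 13923 CPM in WT1, WT2, KO1 and KO2, against a mean of 243 ± 83.7 in other cells. Cd74, the invariant chain, was found in 97.1% of B cells and had 7407 ± 851 CPM. H2-Aa, H2-Ab1 and H2-Eb1, the chains of the MHC class II molecules themselves, had 2135 ± 310, 1932 ± 238 and 2066 ± 268. Their transactivator Ciita had 70.1 ± 16.2. Of 18 genes of receptor signalling, 17 were higher in 4 of 4 mice, with Cd37 (679 ± 150 CPM) and the kinase Syk (241 ± 77.3) among them. The exception was Cd81, a tetraspanin, with 278 ± 59.2 CPM against 666 ± 98.9 in all other kept cells.

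Most survival genes were higher in B cells, while genes of positioning were mixed. Of 10 survival genes, 8 were higher than in other cells in 4 of 4 mice and 0 were lower. Tnfrsf13c, the receptor for the survival factor BAFF, had 168, 93.4, 233 and 82.0 CPM in WT1, WT2, KO1 and KO2. Of 15 homing and egress genes, 8 were higher and 3 lower than in other cells in 4 of 4 mice. Cxcr4, which holds cells in marrow and directs them within lymphoid tissue, had 293 ± 45.2 CPM against 13.5 ± 13.5. S1pr1, which lets lymphocytes leave tissue along sphingosine-1-phosphate, had 333 ± 61.5 against 489 ± 40.6 in other cells, most of which are endothelial and express it as well. Cd69, which opposes S1pr1 at the cell surface and is an early sign of activation, was found in 69.2%, 61.1%, 66.3% and 53.7% of B cells and in 0.491% of other cells. The immediate early genes Fos (1133 ± 159 against 1062 ± 134) and Junb (1256 ± 170 against 1009 ± 225) were close to their level in the other cells of the same libraries. Of the 12 immediate early and heat shock genes, 4 were higher and 5 lower in 4 of 4 mice, beside 7.24% and 39.6% of all genes.

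Vpreb3 stood apart from the mature pattern. It encodes a protein of the pre-B cell receptor complex that lasts into immature and transitional cells, and it had 392, 485, 747 and 298 CPM in WT1, WT2, KO1 and KO2. At chr10:75943057-75949657 on the plus strand (GRCm38), it is not part of the immunoglobulin heavy chain locus. Both Ighd and Vpreb3 were detected in 108 cells, Ighd alone in 97, Vpreb3 alone in 54 and neither in 13. Of 8 immature and transitional genes, Vpreb3 and Cd24a were higher than in other cells in 4 of 4 mice and 4 were lower, beside 7.24% and 39.6% of all genes. The 4 were Cd93, which endothelial cells also carry, with 208 against 604 CPM, Tnfrsf19 with 53.4 against 141, Bcl2l11 with 24.8 against 30.1, and Ptpro, which had no UMI in B cells. Without the endothelial-positive cells, Cd93, Tnfrsf19 and Bcl2l11 had 33.9, 5.56 and 15.8 CPM in B cells (means of 4 mice). Spn and Sox4 went neither way in all mice. Cd24a was found in 50.0%, 47.8%, 55.1% and 36.6% of B cells, against 10.9% of endothelial cells.

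The cells were therefore set apart by which of the 2 transcripts had more UMIs, a division made after the values had been seen and described without a test. Some cells of each mouse were placed by a margin of 1 UMI, such as 0 Ighd and 1 Vpreb3 UMI in a WT1 cell. The label of a single cell is therefore uncertain. Vpreb3 led in 13 of 52 cells in WT1 (25%), 24 of 90 in WT2 (26.7%), 38 of 89 in KO1 (42.7%) and 7 of 41 in KO2 (17.1%). Ighd led in 35, 58, 42 and 27 cells, and the counts were equal in 4, 8, 9 and 7. KO1, where B cells made up the largest share of kept cells, had the largest share of Vpreb3-led cells, with an exact interval of 32.3 to 53.6%, and KO2, where they made up the smallest, had the smallest, at 7.15 to 32.1%. The Angpt2-KO mice lay on either side of both Angpt2-WT mice. Thinned to 1000 UMIs per cell, the share was 15.4%, 25.6%, 36.0% and 12.2%, with the same order of the mice. The median depth of Vpreb3-led and Ighd-led cells was 2545 and 3076 UMIs for WT1, 2816 and 2730 for WT2, 3381 and 3711 for KO1, and 2126 and 2284 for KO2.

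**Figure D3:**
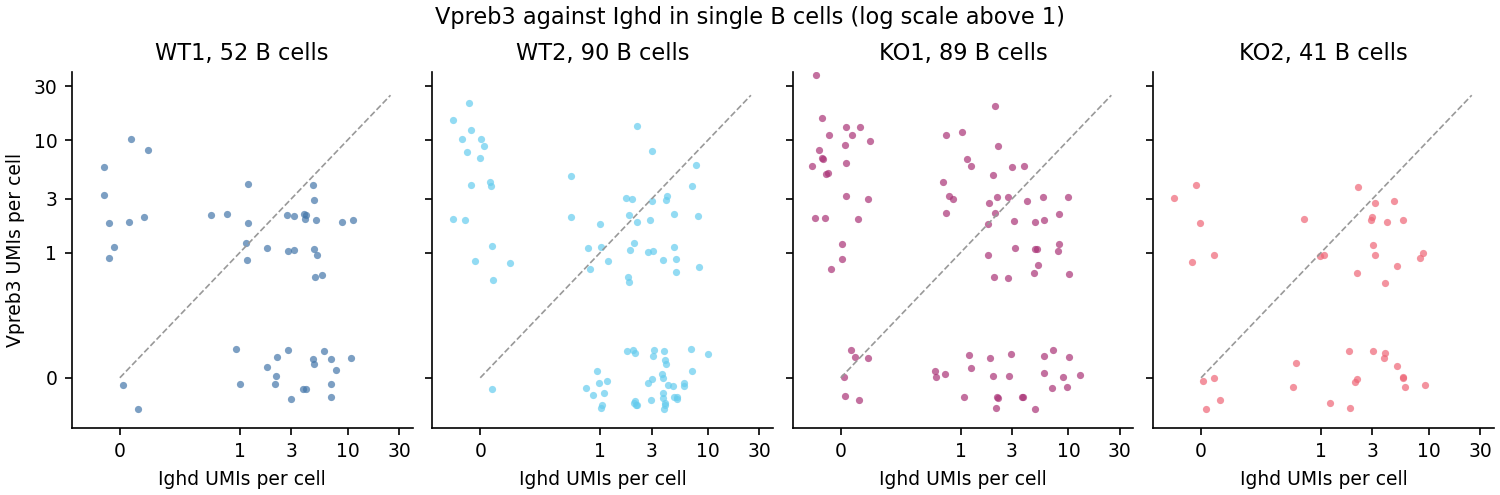
Vpreb3 UMIs against Ighd UMIs in each B cell, 1 panel per mouse, with axes linear to 1 and logarithmic above, small random offsets to separate points, and a dashed line where both are equal. Cells with up to 38 Vpreb3 UMIs lie along the left edge in KO1, while most cells of WT1, WT2 and KO2 lie below the line.

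Other genes differed between the Vpreb3-led and the Ighd-led cells of the same mouse. Among 1777 genes found in at least 25% of the cells of either class, 200 (11.3%) were higher and 196 (11% of them) lower in Vpreb3-led cells in 4 of 4 mice. KO2 had only 7 Vpreb3-led cells, in which 47.0 CPM was the smallest value above 0. Low values of that class, and the counts over 4 mice that use them, therefore rest on few molecules. Cd24a had 619, 452, 563 and 847 CPM in Vpreb3-led cells of WT1, WT2, KO1 and KO2 and 229, 143, 169 and 176 in Ighd-led cells. It was the only 1 of the 8 immature and transitional genes compared, as Vpreb3 set the classes and the others were found in fewer cells. Of these others, Cd93, Tnfrsf19, Bcl2l11 and Spn had lower means in Vpreb3-led cells and Sox4 a higher one, none of them in every mouse. Ptpro had no UMI. Spib had 186, 257, 418 and 329 against 88.7, 78.5, 138 and 94.6. The values of the classes did not overlap for either gene. All 5 genes of the rule were higher in Vpreb3-led cells in 4 of 4 mice, with Ighm at 3594 against 2127 and Ly6d at 3190 against 1343 CPM (means of 4 mice). The genes furthest in this direction were Pafah1b3, Iglc1, Ifi30, Cyb561a3, Dnajc7 and Chchd10. The 7 cells with Rag1 were all Vpreb3-led, as were 11 of the 18 cells with Myb.

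Ighd-led cells were higher in genes of mature cells. Of 7 mature follicular genes compared, 5 were higher in Ighd-led cells in 4 of 4 mice, against 11% of all genes compared, and none in Vpreb3-led cells. Their median log2 ratio of Vpreb3-led over Ighd-led cells was -0.87 against 0.06 over all genes compared. Ighd itself, which set the classes, was not counted. Fcer2a had 186, 208, 152 and 47.0 CPM in Vpreb3-led and 288, 253, 363 and 635 in Ighd-led cells, and Ccr7 had 124, 122, 196 and 235 against 281, 296, 286 and 405. Of 8 MHC class II genes, 4 were higher in Ighd-led cells in 4 of 4 mice, against 11% of all genes compared. H2-Aa had 1342, 1332, 1392 and 1270 CPM in Vpreb3-led and 2927, 2138, 2888 and 2607 in Ighd-led cells, so that these groups did not overlap.

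Immediate early genes followed the same division. Of 12 immediate early and heat shock genes, 8 were higher in Ighd-led cells in 4 of 4 mice, against 11% of all genes compared, and none in Vpreb3-led cells. Fos had 330, 293, 304 and 470 CPM in Vpreb3-led cells and 1404, 1074, 1533 and 1337 in Ighd-led cells. Egr1 had 165, 208, 50.6 and 0 against 495, 478, 291 and 500, where the 0 comes from the 7 Vpreb3-led cells of KO2. Nr4a1, which receptor signalling induces, had a mean of 36.6 against 209 CPM. Gpr183, which steers activated B cells within follicles, had 72.8 ± 17.6 against 237 ± 61.8. Both classes came from the same libraries. Without the endothelial-positive cells, Cd24a, Spib, Ighm and Ly6d were higher in Vpreb3-led cells in 4 of 4 mice, and Fcer2a, H2-Aa, Fos and Egr1 were higher in Vpreb3-led cells in 0 of 4.

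**Figure D4:**
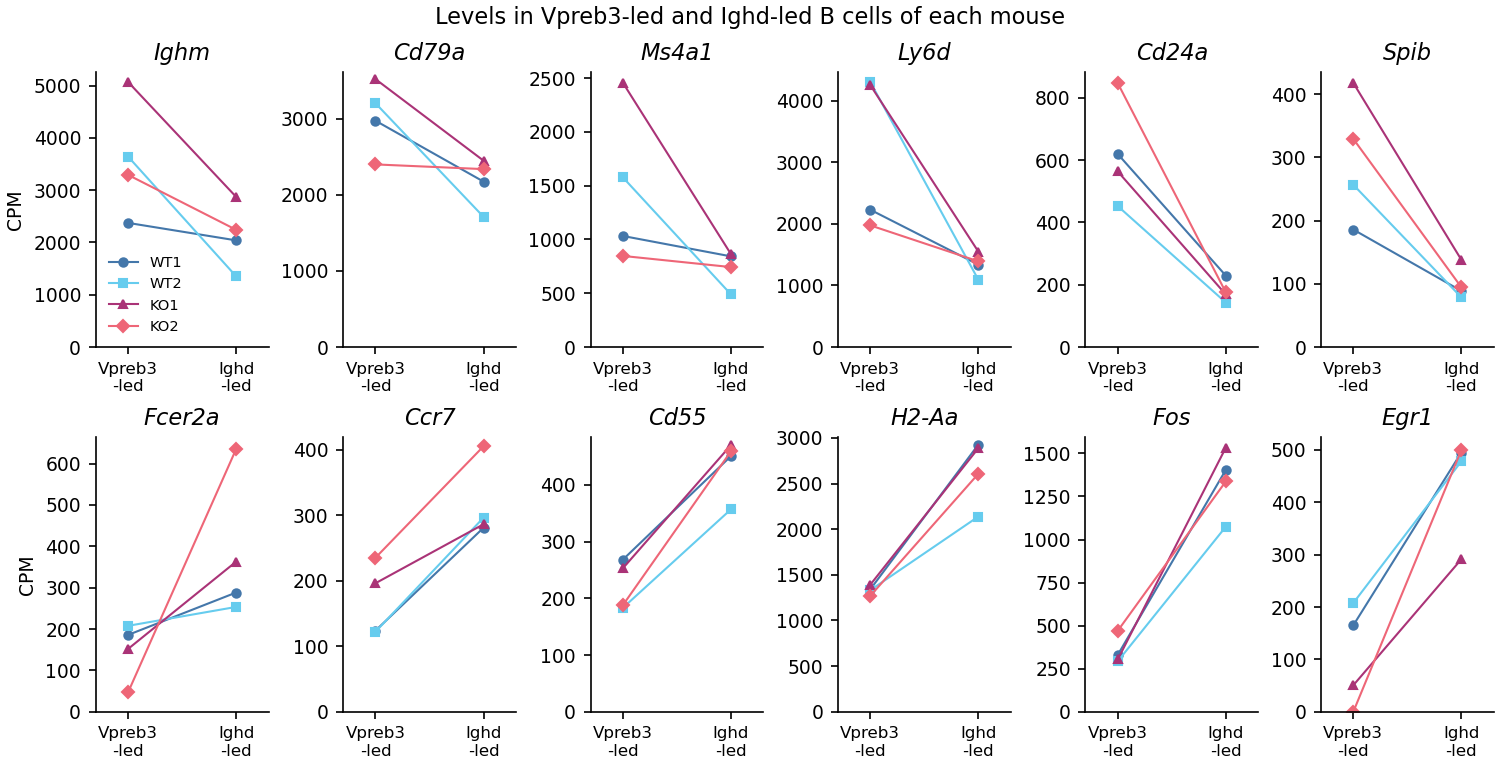
CPM of 12 genes in the Vpreb3-led and the Ighd-led B cells of each mouse, with a line joining the values of 1 mouse. In the upper row (Ighm, Cd79a, Ms4a1, Ly6d, Cd24a, Spib) each line falls from Vpreb3-led to Ighd-led cells, and in the lower row (Fcer2a, Ccr7, Cd55, H2-Aa, Fos, Egr1) each line rises.

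Each B cell normally uses 1 light chain, kappa or lambda. Kappa (Igkc) had more UMIs than the 3 lambda constant regions together in 82.7%, 76.7%, 80.9% and 78.0% of cells of WT1, WT2, KO1 and KO2, or 79.6 ± 2.72% (SD, n = 4 mice), and lambda had more in 15.4%, 22.2%, 16.9% and 12.2%. The mice did not differ beyond their exact intervals, of which the widest, in KO2, ran from 62.4 to 89.4% for kappa. In 90.8% of B cells UMIs of both kinds were seen, while 0.658% of endothelial cells had Igkc and 0.222% had Iglc2. Lambda made up under 10% of light chain UMIs in 26 cells, over 90% in 19 and a share between these in 226. Iglc2 and Iglc3 are near-identical copies, so the division of reads between them, and part of the lambda total, is uncertain.

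Iglc1 was divided unevenly over the cells. It had no UMI in 138 cells and 20 or more in 15, of which WT1, WT2 and KO1 held 1, 8 and 6 and KO2 none. Those 15 cells had a median of 30 Iglc1 UMIs and 0 Igkc UMIs, and the other cells had medians of 0 and 26. Some of the 15 also held Igkc, such as a WT2 cell with 91 Igkc and 24 Iglc1 UMIs, so Iglc1 did not separate the cells fully. Of the 15 cells, 10 were Vpreb3-led and 5 Ighd-led. Lambda led in 23 of 82 Vpreb3-led cells (28.0%) and in 23 of 162 Ighd-led cells (14.2%).

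**Figure D5:**
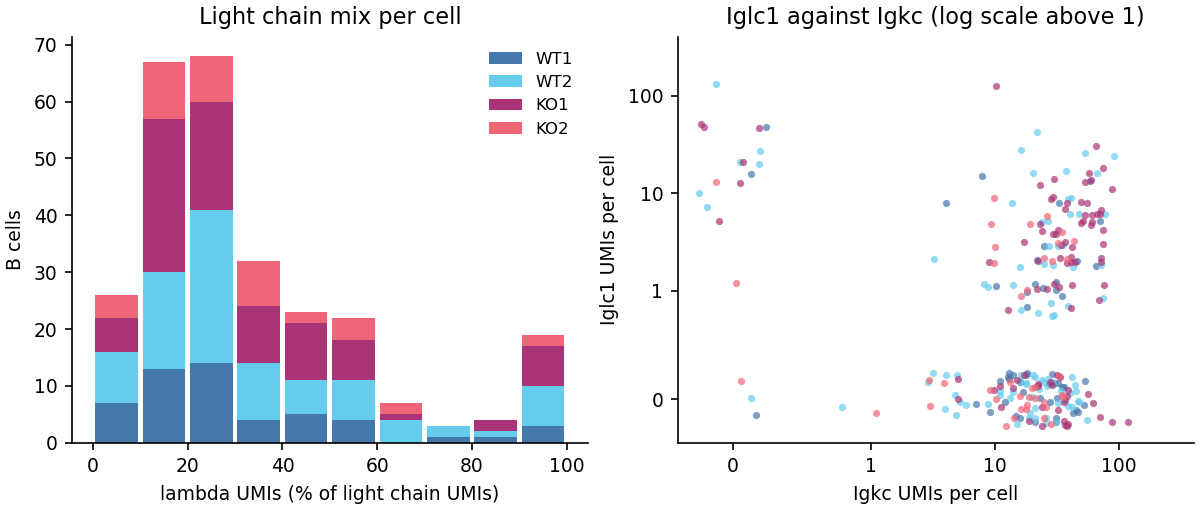
Left, number of B cells by the percentage of light chain UMIs that were lambda (Iglc1, Iglc2 and Iglc3), stacked by mouse. Right, Iglc1 against Igkc UMIs per cell in the same colours, with axes linear to 1 and logarithmic above and small random offsets; 19 cells form the last bar at left, and the cells with 20 or more Iglc1 UMIs lie at the top of the right panel.

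The last comparison was between genotypes, on the summed UMIs of each mouse's B cells. No gene passed an adjusted p of 0.05 among 4601 tested (0%) by the quasi-likelihood test of edgeR (Benjamini-Hochberg adjusted), where the lowest adjusted p was 0.659. With the replicate number, which marks the sex of the mice, as a block, 1 gene passed, Ifitm3 (edgeR adjusted p = 0.0279), an interferon-induced membrane protein named after its values were seen. It had 378 and 1194 CPM in WT1 and WT2 and 172 and 276 in KO1 and KO2, and its adjusted p without the block was 0.659. At an unadjusted p under 0.05 there were 214 genes, 94 higher and 120 lower in Angpt2-KO, and DESeq2 also called 0 genes, with 29 at an unadjusted p under 0.05. For 757 genes (16.5%) the 2 Angpt2-KO values were above both Angpt2-WT values, and for 792 (17.2%) they were below. The 41 B cells of KO2 and 52 of WT1 limit the size of change that could be seen.

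Genes of the maturation stages did not pass the test. The fitted log2 change of Angpt2-KO over Angpt2-WT was -0.14 ± 0.32 (SE) for Ighd, 0.23 ± 0.36 for Vpreb3, 0.45 ± 0.28 for Ighm, -0.28 ± 0.25 for H2-Aa and 0.18 ± 0.31 for Fcer2a, with edgeR adjusted p between 0.931 and 0.999. Among B lineage factors, both Angpt2-KO mice were above both Angpt2-WT mice for 3 of 11 genes tested. The coactivator Pou2af1 had 96.0 and 76.5 CPM in WT1 and WT2 and 192 and 189 in KO1 and KO2 (log2 change 1.18 ± 0.33, edgeR adjusted p = 0.845), and Ikzf3 had 66 and 109 against 192 and 181 (1.02 ± 0.34, edgeR adjusted p = 0.884). For both genes the 2 Angpt2-KO values were above both Angpt2-WT values, as for 16.5% of all genes tested, while a further 17.2% were separated in the other direction.

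Of 7 interferon response genes tested, 4 were lower in both Angpt2-KO mice than in both Angpt2-WT mice (57.1%, against 17.2% of all genes), none passed the test, and the median log2 change was -1.16. Bst2 had 156 and 194 CPM in WT1 and WT2 and 100.1 and 39.4 in KO1 and KO2 (edgeR adjusted p = 0.884). Of the 10 endothelial genes, 2 were lower in both Angpt2-KO mice (20%, against 17.2% of all genes), none passed the test, and the median log2 change was -0.43. The 2 were Bsg, with 3612 and 5532 against 2681 and 2885 CPM, and Ly6c1, with 852 and 1200 against 439 and 544. These values include the endothelial-positive cells. Before TMM scaling, the 10 genes summed to 7040, 12049, 6136 and 7912 CPM in WT1, WT2, KO1 and KO2. Without those cells they summed to 791, 825, 581 and 772 CPM. Pecam1 and Kdr had log2 changes of 0.04 ± 0.29 and 0.34 ± 0.35. The interferon genes were divided over the cells unevenly. Isg15 was found in 21 B cells, of which 6 were not endothelial-positive, and Ifit1 in 15, of which 1 was not. Ifi27l2a, the most abundant of the list, was found in 157 cells, of which 137 were not. Without the endothelial-positive cells the list summed to 944, 920, 1117 and 321 CPM in WT1, WT2, KO1 and KO2, with KO1 the highest and KO2 the lowest. Without those cells 2541 genes could be tested by edgeR, 0 were called, and 71 had an unadjusted p under 0.05.

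Angiopoietins and their receptors were nearly absent from the B cells that were not endothelial-positive. The 7 genes of the list, Tie1 among them, summed to 246 ± 90.2 CPM over all B cells (SD, n = 4 mice). Without the endothelial-positive cells they summed to 22.7 ± 8.31 CPM. Angpt2 had 6 UMIs in 4 B cells, all of them endothelial-positive, and Tek, the angiopoietin receptor of endothelial cells, went from 26 cells to 2 without those cells. Angpt1 had 1 UMI and Angpt4 none. Itgb3 was found in 6 cells, none of which was endothelial-positive.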

How the data were processed

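The authors dissociated PECAM1-captured cerebral vascular fragments, made 10x Genomics 3′ v3.1 libraries and aligned and counted them with Cell Ranger 6.1.2 on mm10, per the submitters' processing notes. The deposited values are raw UMI counts per gene and barcode, and the authors' filter (over 500 genes, under 10% mitochondrial) was applied again here. Kept cells held 32896366, 42903731, 32558112 and 31753395 UMIs in WT1, WT2, KO1 and KO2. No doublet caller was run. The B cell rule, the gene lists and the comparisons were chosen with earlier results of these data known, and the Vpreb3 and Ighd classes after seeing the values.

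Endothelial cells had 4 or more of 7 listed genes, microglia 4 or more of 8, and T or NK cells 3 or more of 10. A cell in more than 1 class entered none. Levels are counts per 1000000 (CPM) of the summed UMIs of a mouse's cells, with no length scaling since 3′ UMIs count molecules. Log2 ratios between cells used a pseudocount of 1 CPM (10 between the classes). Named genes were those of the lists, and the 20 with the highest ratio outside the rule found in 25% of B cells of every mouse. For genotypes, up to 5 called genes in each direction were to be named, and none was called. Some listed genes are counted with their lists and are not reported here by name. Sums per mouse were tested with edgeR 4.0.16 (filterByExpr, TMM, quasi-likelihood test) and DESeq2 1.42.0 in R 4.3.3, after a check on simulated counts. The genotype CPM values carry the TMM scaling. Intervals are exact binomial ones at 95%. The study used wild-type littermates as controls and describes 2 independent single-cell experiments. Which library belongs to which is not given in the sources used here, so that the replicate number, the sex and, possibly, the experiment cannot be told apart, and p-values measure the spread between 2 mice. Of 32286 gene IDs, 32158 matched GENCODE M21.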

Additional observations from a re-analysis of the deposited data

Results flagged for a closer look

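Barcodes that the filters had removed held B cells as well. Of 1810 removed barcodes, 12 met the marker rule, above the limit of 3 counts that a count of 0 allows, and none of them entered a comparison. They came from WT2 (7) and KO2 (5), with 0 in WT1 and KO1. Of these, 10 had 500 genes or fewer and 2 failed on mitochondrial UMIs, with a median of 416 genes. With a limit of 300 genes the number of B cells was 281 in place of 272.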

How the results depend on the processing

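The difference in B cell share kept its sign in 8 alternatives of the filters, the marker rule and the endothelial-positive cells, at 0.421 to 0.705 percentage points. As a share of kept cells other than endothelial cells it nearly vanished, at 0.0996 percentage points (10.7% in Angpt2-KO and 10.6% in Angpt2-WT mice). As a share of kept cells it ran from -0.655 (without KO1) to 1.64 with 1 mouse left out. With same-numbered mice of one sex as a replicate block it was 0.493 (exact sign-flip p = 1). The mean share of B cells with Ighd stayed between 72.3 and 77.4% under the other rules and 74.8 to 79% with 1 mouse left out, and that of Vpreb3 between 55.6 and 64.5% and between 56.5 and 60.8%. Thinning to 1000 UMIs gave 51.0% and 34.1%, thinning to 2000 UMIs (225 cells) 63.2% and 48.4%, and asking for 2 or more UMIs 60.5% and 37.8%, as fewer molecules leave more cells without one. The share of Vpreb3-led cells, with alternatives added after seeing the data, was 27.9% as reported, 26.7% without endothelial-positive cells and 22.3% after thinning. Kappa cells fell from 79.6% to 11.4% where 90% of light chain UMIs were required, and were 81.0% among cells with 5 or more. With a pseudocount of 10 CPM, 14 of the 20 leading genes were shared.

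The genotype test called 0 genes under DESeq2, other size factors, upper quartile scaling, a minimum of 20 UMIs in 2 mice, the stricter marker rule and without endothelial-positive cells. It called 14 of 13626 with no filter, and 1 with the replicate block (Ifitm3, adjusted p = 0.0279). The number marks sex, but 2 pairs do not establish pairing. The replicate differences of the groups correlated at 0.156 across 4601 genes and at 0.213 across the 3347 genes at 50 CPM or more. With 1 mouse left out, where the lone mouse of a group is assumed to vary like the others, 12 to 29 genes were called (28 without WT1, 12 without WT2, 13 without KO1 and 29 without KO2). Xist led without WT1 and without KO1, which leaves the sexes unbalanced. Depth limits each of these: 3 UMIs in the 134098 of KO2 are 22.4 CPM.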
